A study of Mus musculus with 2 samples.

Results

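The plasminogen activation system was examined in 3T3 cells, a mouse embryo fibroblast line that grows without limit, in 2 conditions with 1 Affymetrix MG_U74Av2 array each. The fibronectin group was plated for 30 min on fibronectin at 10 µg/ml, an adhesive glycoprotein of the extracellular matrix, and the suspension group was kept unattached. Both groups were cultured in serum-free DMEM. The labels name no genotype, transgene or further agent, and they do not say how long the cells were in suspension. The 4 genes considered were Plau, Plat, Plaur and Serpine2, and their probe sets were all those that the platform annotation maps to exactly 1 of these genes. This gave 3 probe sets of 12488 on the array, 1 each for Plau, Plat and Plaur, and Serpine2 was not analysed here.

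Plasminogen is a circulating zymogen that is cut into the broad protease plasmin by urokinase, the product of Plau, or by tissue plasminogen activator, the product of Plat. Plaur encodes the urokinase receptor, a surface protein anchored by a lipid that holds urokinase at the cell edge and also binds vitronectin and integrins. Serpins such as the Serpine2 product, protease nexin, block the activators, and the complexes are taken up by receptors of the LDL receptor family. In fibroblasts the system is known for its part in matrix breakdown, wound repair and migration.

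Each value below is the scaled signal of 1 probe set on 1 array, so no p-value can be given and "higher" or "lower" is a statement about this pair of arrays alone. A signal floor of 490 was applied before log2 was taken, and a gene counted as measured when at least 1 array reached the floor, which held for 6385 of 8251 named genes. Where only 1 array reached the floor, the ratio is a bound, and it is no bound against background, as some negative controls exceed the floor. The series text speaks of replicates, but the labels give 1 sample per group. As a gauge of background, 34 negative control probe sets (antisense controls and bacterial or yeast sequences) had a 95th percentile of 1874 on fibronectin and 1403 in suspension. The spread of log2 ratios between probe sets of 1 gene was 0.69 (SD, 1146 genes), which is an error within these arrays and holds no spread between cultures. Chip lot, operator, fluidics module and scan day differed between the arrays and cannot be told apart from the group. Among fibroblast markers, 8 of 12 with a probe set were above the control level in both arrays. Col1a1, a fibrillar collagen chain, had a signal of 68597 on fibronectin and 45602 in suspension, whereas Vim, the fibroblast intermediate filament gene, had 686 on fibronectin and 1421 in suspension. Thy1, a surface marker of fibroblasts, was below the floor in both arrays. Cell numbers and RNA per cell cannot be told apart in such bulk RNA.

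Plat, the tissue-type activator, was well above the negative controls in both arrays and stood higher on fibronectin. Its signal was 11815 on fibronectin and 6059 in suspension. Both signals exceeded all 34 negative controls of their array and lay at percentile 97.1 of all probe sets on fibronectin and 94.1 in suspension. The log2 ratio was 0.96, or 1.95-fold, against a probe set spread of 0.59 (SD, 331 genes) in the upper tertile of signals. Measured genes with a mean log2 signal within 0.5 of that of Plat numbered 368, Plat included. Of these, 28 (7.61%), Plat again included, had a ratio at least as high. When 9 spiked hybridisation controls set the scale instead, the log2 ratio of Plat was 0.49, short of 1.5-fold.

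Plau, the urokinase gene, stood lower on fibronectin, at signals close to background in both arrays. Its signal was 720 on fibronectin and 1277 in suspension. At or above these signals were 7 of the 34 negative controls on fibronectin and 3 in suspension. The log2 ratio of -0.83, a 1.77-fold lower signal, compares with a probe set spread of 0.73 (SD, 563 genes) in the middle tertile of signals. A ratio as low was found in 565 of 1896 measured genes of like signal (29.8%), Plau included in both counts. Raising the floor to the 60th percentile gave a log2 ratio of -0.28, and a floor at the 95th percentile of the negative controls left Plau unmeasured.

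Plaur, the urokinase receptor gene, had the largest ratio of the 3 genes at the floor used here, and it is a bound. Its signal was 1849 on fibronectin and 311 in suspension, which is below the floor. The signal on fibronectin lay at percentile 75.6 of all probe sets, with 2 of 34 negative controls at or above it, while in suspension 21 of 34 controls were at or above it. Against the floor, Plaur was at least 3.78-fold higher on fibronectin (log2 ratio at least 1.92). Of 1900 measured genes of like signal, 21 (1.11%) had a ratio at least as high, Plaur included in both counts. That share says little on rarity, because Plaur counted as measured through the fibronectin array alone. With suspension set to the floor, its ratio is the largest possible at its mean log2 signal. The bound depends on the floor, since a 60th percentile floor gave a log2 ratio of 0.81, and one at the 95th percentile of the negative controls gave 0.17. With either of these floors the ratio of Plat, 0.96, was the larger.

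**Figure D1:**
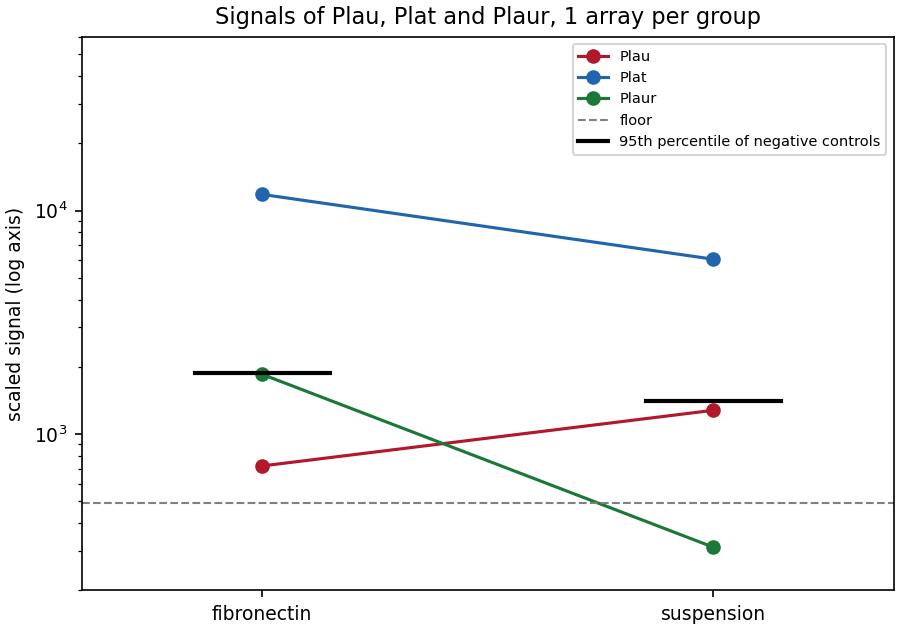
Scaled signal (log axis) of the Plau, Plat and Plaur probe sets on the fibronectin array and the suspension array, with 1 array per group. The dashed line is the floor of 490 and the black bars are the 95th percentiles of the negative controls, 1874 on fibronectin and 1403 in suspension. Plat lies above them in both arrays, Plau below them in both, and Plaur, at 1849 on fibronectin, just below.

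Set side by side, Plat and Plaur had ratios above 0 and Plau one below 0, but Plat alone was above the control level in both arrays. Both signals of Plau and both of Plaur lay below the control level, so the sizes of their ratios, and of any difference from Plat, are uncertain. Past 1.5-fold, 2 of the 3 genes (Plat and Plaur) were higher on fibronectin and 1 (Plau) lower, beside 15.9% of all measured genes that were that much higher and 22.6% lower. At 2-fold, 1 gene (Plaur) was higher and 0 were lower, beside 5.81% of all measured genes higher and 9.27% lower. With 3 genes, such shares describe the arrays and carry no test.

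**Figure D2:**
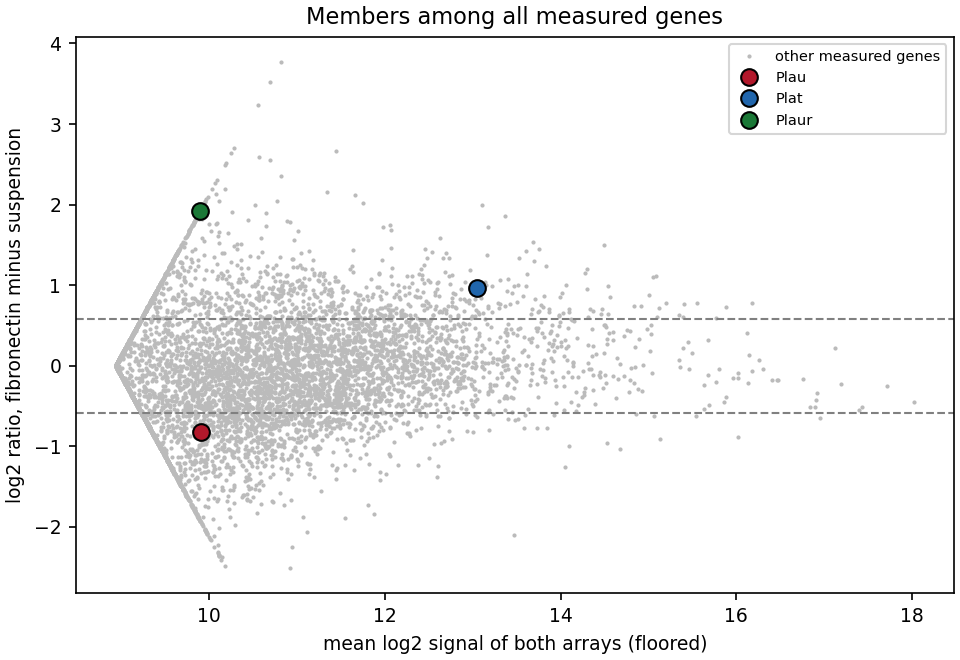
Log2 ratio, fibronectin minus suspension, against the mean log2 signal of both arrays for all 6385 measured genes (grey), with Plau, Plat and Plaur marked and dashed lines at 1.5-fold. Plat (0.96) lies in the upper part of the genes of its signal, with some genes well above it. Plaur (1.92) lies on the diagonal of genes whose suspension signal is at the floor, and Plau (-0.83) lies within the cloud.

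The promoter of Plaur is shown because, of the members with a probe set, only Plaur had a promoter window here. No comparison with Plau or Plat could be made. Transcription factors of the AP-1 family, which adhesion and growth signals activate, are known to act on the promoter of the human urokinase receptor gene. The 250 bases before the start site at chr7:24462233-24462482 (plus strand, RefSeq, GRCm38.p6) are printed 5′ to 3′, and the capitals mark the match to the AP-1 motif TGANTCA.
Plaur: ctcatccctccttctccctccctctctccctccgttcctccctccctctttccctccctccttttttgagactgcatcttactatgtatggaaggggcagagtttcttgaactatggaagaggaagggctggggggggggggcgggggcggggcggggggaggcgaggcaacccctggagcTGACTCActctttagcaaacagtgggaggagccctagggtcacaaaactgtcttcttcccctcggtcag
The match, TGACTCA, begins 69 bases before the start site. The motif reads the same on both strands and occurred in 6.75% of 32851 such windows of mouse genes. The GC box, GGGCGG, was found 3 times over both strands, apart from the AP-1 match, and 32.7% of windows held at least 1. The cyclic AMP element, TGACGTCA, was not in the window and occurred in 1.55% of windows. These are matches of letters, and no binding was measured.

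A list of 61 further genes of the plasminogen system, sorted by role, was read beside the 3 genes. The list and its roles were chosen with earlier results of these data known. Shares of the list given here and below describe the arrays and carry no test. Of its members 53 had a named probe set and 37 were measured. At least 1.5-fold higher on fibronectin were 16 of the 37 (43.2%) and at least 1.5-fold lower 5 (13.5%), beside the 15.9% and 22.6% of all measured genes given above. At least 2-fold higher were 11 and lower 0, beside 5.81% higher and 9.27% lower of all measured genes. Of the 11, Itgb1 alone was above the control level in both arrays. Itga5, Mrc2, Met and Vegfa counted as measured through the fibronectin array alone, so their ratios could only lie above 0. The list had a median log2 ratio of 0.32, and all measured genes -0.09. With spike scaling the median was -0.05 for the list and -0.51 for all measured genes, so the sign of the list median was not settled. Above the control level in both arrays, 5 of 13 list genes (38.5%) and 383 of 2263 overall (16.9%) were at least 1.5-fold higher. At least 1.5-fold lower were 2 of the 13 (15.4%) and 165 of the 2263 (7.29%), so there the list had the larger share on both sides. Over the alternatives the list had 10 to 21 genes past 1.5-fold higher and 2 to 16 lower. All measured genes then had 367 to 1690 higher and 311 to 2919 lower.

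Genes for surface binding and uptake were mostly higher. Past 1.5-fold, 7 of the 12 measured (58.3%) were higher on fibronectin and 0 lower, beside 15.9% higher and 22.6% lower of all measured genes, and the median log2 ratio was 0.68. The higher ones were Itga5, Mrc2, Itgb1, Igf2r, Itgav, Lrp1 and Itga3. Of the 7 genes above the control level in both arrays, 4 were higher past 1.5-fold, beside 16.9% of all genes above it. Itga5 and Mrc2 counted as measured through the fibronectin array alone. The number higher was 3 of 12 with spike scaling, where 367 of all 6364 measured genes were, and 5 to 9 under the other alternatives. Itga5, the alpha chain of the classical fibronectin receptor, had a signal of 4605 on fibronectin and 407 in suspension, at least 9.40-fold higher. Mrc2, a collagen uptake receptor that associates with the urokinase receptor, had 3043 on fibronectin and 271 in suspension, at least 6.21-fold higher. Both suspension signals were below the control level, so the bounds of Itga5 and Mrc2 hold against the floor alone. Itgb1, the common beta chain, had 29547 on fibronectin and 13298 in suspension (2.22-fold higher). Its second probe set had 7427 on fibronectin and 5989 in suspension (1.24-fold higher).

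Receptors that clear protease complexes did not share a level. Vldlr, of the LDL receptor family, had a signal of 72.6 on fibronectin and 658 in suspension, below the control level in both (log2 ratio -0.43, a bound). Lrp1, the LDL receptor relative that internalises urokinase with its receptor, had a signal of 26457 on fibronectin and 16230 in suspension, or 1.63-fold higher. Igf2r, a lysosomal sorting receptor that can bind the urokinase receptor, had 3717 on fibronectin and 1923 in suspension (1.93-fold higher). Lrpap1, a chaperone of the LDL receptor family, was below the 1.5-fold size with a log2 ratio of 0.53. Anxa2 and S100a10 form the annexin complex that binds plasminogen. Anxa2 had 31904 on fibronectin and 27134 in suspension (log2 ratio 0.23), and S100a10 had 17030 on fibronectin and 18772 in suspension (log2 ratio -0.14).

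The 7 measured inhibitor genes had ratios below 0, of which 2 were above 0 under median scaling and 1 after quantile normalization. Past 1.5-fold, 0 were higher and 2 (28.6%) lower, beside 15.9% higher and 22.6% lower of all measured genes, of which 3514 of 6385 lay below 0. The median log2 ratio was -0.43. A2m and Serpinb2 counted as measured through the suspension array alone, so their ratios could only lie below 0. A2m, a broad protease inhibitor of plasma, had a signal of 447 on fibronectin and 948 in suspension, at least 1.94-fold lower and below the control level in both arrays. Serpinf2, the antiplasmin gene, had 2197 on fibronectin and 3525 in suspension (1.60-fold lower) in a probe set ending in _r_at. Its second probe set, with 186 on fibronectin and 233 in suspension, was below the floor in both arrays. Serpini1, the neuroserpin gene, had 636 on fibronectin and 888 in suspension, with a log2 ratio of -0.48. Serpinb6a, an intracellular serpin, had 7487 on fibronectin and 7829 in suspension (log2 ratio -0.06). Of the 7, only Serpinf2, by its brightest probe set, and Serpinb6a exceeded the control level in both arrays. Plg, the plasminogen gene, which liver rather than fibroblasts is known to express, was the single measured gene of plasminogen activation besides the activators, with 811 on fibronectin, below the control level, and 1484 in suspension (log2 ratio -0.87). Its second probe set had 90.9 on fibronectin and 1054 in suspension, also below the control level.

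Of genes for proteins that plasmin or urokinase acts on, with some of their receptors, 10 had ratios above 0 and 3 below. Of all 6385 measured genes, 2871 lay above 0 and 3514 below. Past 1.5-fold, 7 of the 13 measured (53.8%) were higher and 2 (15.4%) lower, where all measured genes had 15.9% and 22.6%, and the median log2 ratio was 0.70. Vegfa, Fga and Met, the receptor of hepatocyte growth factor, counted as measured through the fibronectin array alone. Lama1, 1 of the 2 lower genes, did so through the suspension array alone, so its direction was fixed by that rule. Vegfa, an angiogenic factor released from matrix by plasmin, had a signal of 2754 on fibronectin and 388 in suspension, at least 5.62-fold higher. The suspension signals of Vegfa, Lamc1 and Mmp9 were below the control level, so the bound of Vegfa holds against the floor alone. Lamc1, a laminin chain, had 2483 on fibronectin and 542 in suspension (4.58-fold higher), but 611 on fibronectin and 757 in suspension in its second probe set (log2 ratio -0.31). Mmp9, a gelatinase, had 3090 on fibronectin and 830 in suspension (3.73-fold higher), but 722 on fibronectin and 1010 in suspension in its second probe set (log2 ratio -0.48). Only Mmp14, Bdnf and Fn1 of this group exceeded the control level in both arrays, and their log2 ratios were 0.70, -0.71 and -0.05.

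Among genes of thrombin and its receptors, a protease cascade that borders on plasmin, 2 of the 4 measured were higher past 1.5-fold and 0 lower, with shares over all measured genes of 15.9% and 22.6%. F2r was the single gene above the control level in both arrays, and its brightest probe set did not pass 1.5-fold. F3, tissue factor, had a signal of 3128 on fibronectin and 1338 in suspension, where it was below the control level (log2 ratio 1.23). Procr, the protein C receptor, had 1261 on fibronectin and 629 in suspension (2.00-fold higher), both below the control level. Tfpi2, a protease inhibitor of the matrix, had 668 on fibronectin and 212 in suspension, with a log2 ratio of at least 0.45. F2r, the thrombin receptor, had a log2 ratio of 0.32 in its brightest probe set, with 7729 on fibronectin and 6186 in suspension, but 2.52 and 1.81 in its other probe sets, so that its size was not settled.

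**Figure D3:**
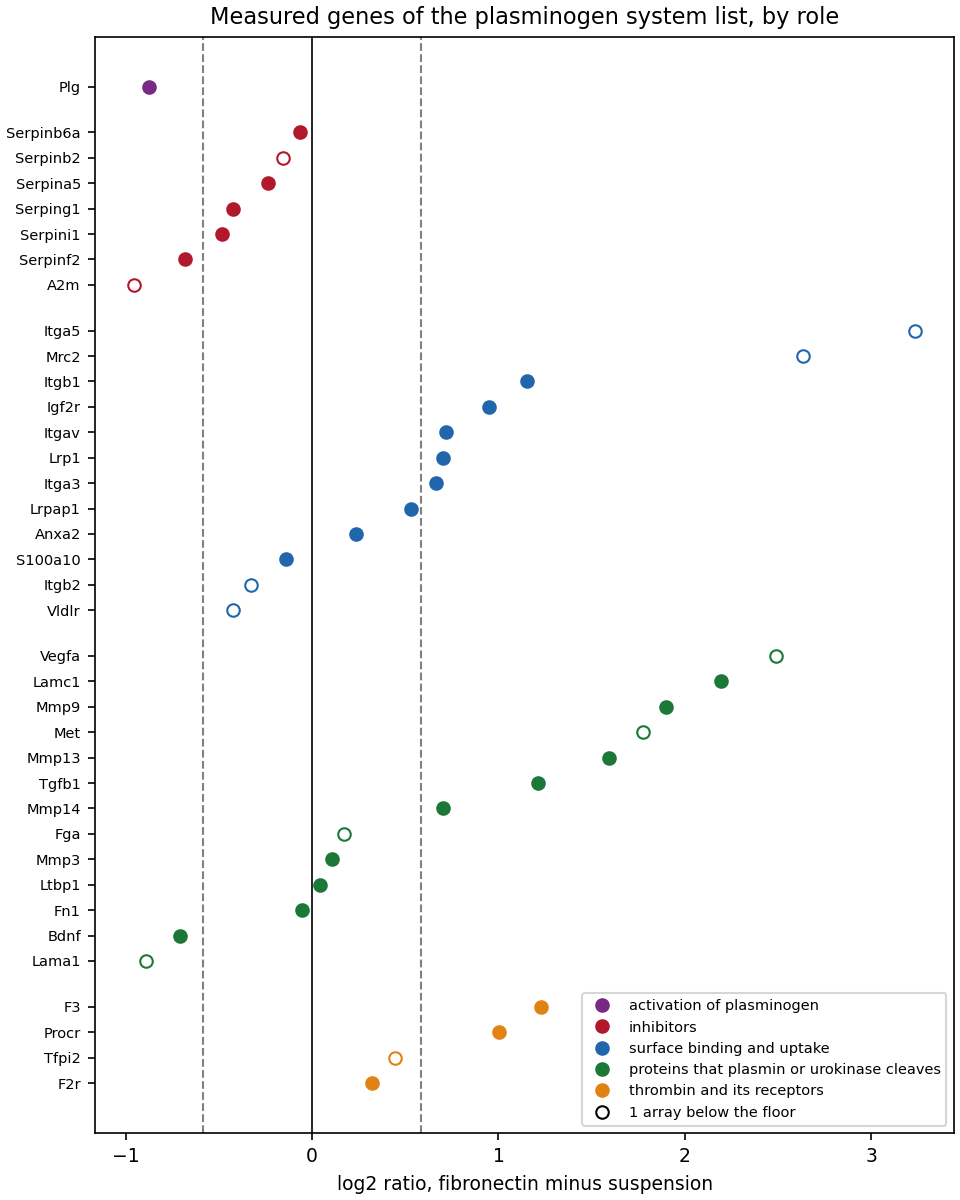
Log2 ratio, fibronectin minus suspension, of the 37 measured genes of the plasminogen system list, grouped by role, with dashed lines at 1.5-fold and open circles where 1 array was below the floor. The 7 inhibitors lie left of 0 in this processing, while 7 of 12 genes for surface binding and uptake lie right of the 1.5-fold line.

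Because other cell types also express these genes, their markers were read in the same arrays. Of 7 endothelial markers with a probe set, a cell type known for Plat, 0 exceeded the control level in both arrays and their summed signal was 1559 on fibronectin and 2431 in suspension. Of 9 markers of macrophages and leukocytes, known for Plaur and Plau, 1 did so, Cd14, with 3857 on fibronectin and 5342 in suspension, while Ptprc, the common leukocyte antigen, had 22.9 on fibronectin and 102 in suspension. Their summed signal was 7447 on fibronectin and 10269 in suspension. None of the 7 epithelial or 5 neural and glial markers exceeded the control level in both arrays. In suspension alone, the epithelial markers Cdh1 (2154) and Cldn4 (1412) exceeded it. So did the leukocyte markers Csf1r (1844) and Fcgr1 (1528). The summed signal of the 12 fibroblast markers was 219850 on fibronectin and 148510 in suspension, and its part in the ratios above was not tested. Most of that sum came from Col1a1, Col1a2 and S100a4, while Vim, Thy1, Lum and Fap stood lower on fibronectin.

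With 2 arrays, likeness between genes can be read only from 2 signals. By the distance over both log2 signals, the measured genes nearest to Plat were Nisch (0.0051) and Col4a2 (0.020), those nearest to Plau were Cdca3 (0.019) and Cd300c2 (0.022), and those nearest to Plaur were Nav2 (0.012) and Gga1 (0.013). The suspension signals of Nav2 and Gga1, like that of Plaur, were below the floor.

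**Figure D4:**
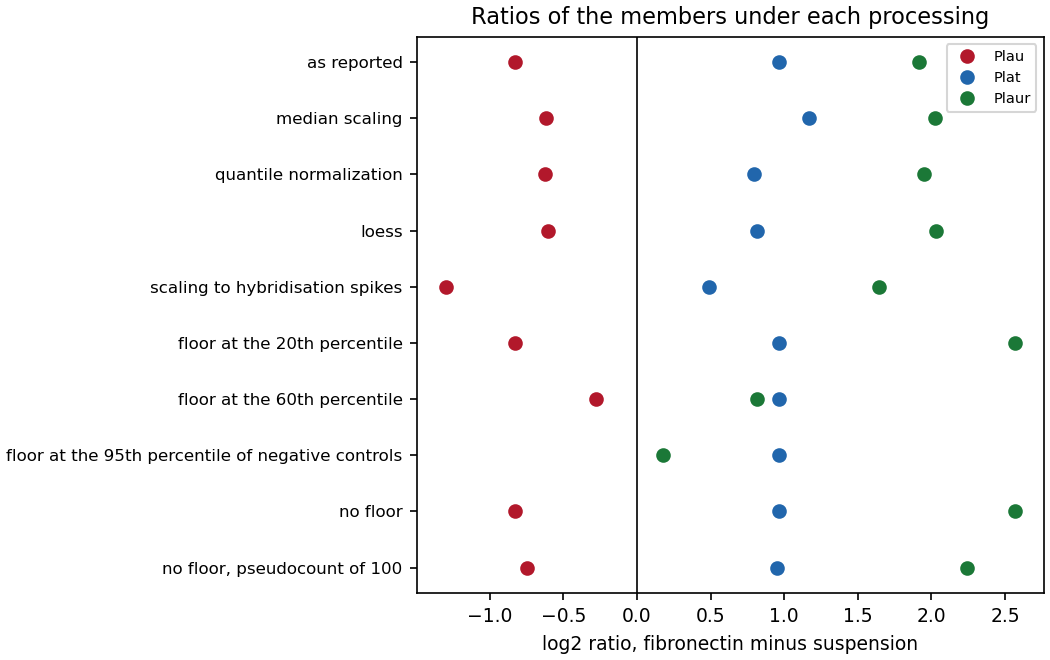
Log2 ratio, fibronectin minus suspension, of Plau, Plat and Plaur as reported and under 9 alternative scalings and floors. Plat stays between 0.49 and 1.17 and Plau below 0 where it was measured, while Plaur moves between 0.17 and 2.57 with the floor.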

How the data were processed

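The deposited values are intensities, 1 linear signal per probe set, which the authors computed in MAS5, per the submitters' processing notes. Neither its version nor its scaling target is stated there, and detection calls were not used. The trimmed means (2% at each end) of the deposited intensities were 1485 on fibronectin and 1488 in suspension, with medians of 678 on fibronectin and 785 in suspension over 12422 probe sets without controls. With intensities of 1 array per group, the number of arrays limits the precision.

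Each array was scaled to a common trimmed mean, floored at the 40th percentile of signals, averaged over the arrays, and put on the log2 scale (Python 3.11.15, numpy 2.4.6, pandas 2.3.3). Loess used statsmodels 0.14.6. Names came from the platform annotation: 10855 had 1 symbol, 396 several and 1237 were unnamed here, and 10839 matched the RefSeq gene table of GRCm38.p6 by gene ID. The probe set with the highest mean log2 signal stood for a gene; those ending in _f_at or _r_at may pick up related sequences. The scripts were tested on simulated data. No build is named for the array values, so no gene coordinates are given.

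The members, the list and its 5 roles were chosen with earlier results of these data known. Named were all member probe sets, the 3 largest absolute ratios per role and the 2 nearest genes per member, and the others were chosen after their values were seen. The 10 alternatives were other scalings, floors and ways to join probe sets. The list does not hold every gene of the system.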

Additional observations from a re-analysis of the deposited data

How the results depend on the processing

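Plat kept its direction under all 9 alternatives run, with log2 ratios from 0.49 to 1.17, and Plau under the 8 in which it was measured, from -1.30 to -0.28. Plaur kept its sign, but a floor at the 60th percentile gave a log2 ratio of 0.81 and a floor at the negative controls 0.17. Plat minus Plau, added after seeing the data, ran from 1.24 to 1.79 and Plaur minus Plau, added likewise, from 1.09 (60th percentile floor) to 3.40, with Plau near background throughout. Of the 3 genes, 1 was at least 1.5-fold higher with scaling to the spikes, beside 367 of all 6364 measured genes. Likewise 1 was so with the floor at the negative controls, beside 433 of 3319. In the plasminogen system list, scaling to the spikes gave 10 higher and 10 lower of 36 measured genes, in place of 16 and 5 of 37. Of all measured genes 2919 of 6364 were then lower, in place of 1440 of 6385. Among surface binding and uptake, 3 were higher with spike scaling, a count also added later. Lower list genes were 9 of 47 for a floor at the 20th percentile, beside 2100 of all 7673 measured genes. They were 2 of 28 at the 60th (683 of 4545 overall) and 2 of 23 at the negative controls (311 of 3319). Median scaling gave 3 of 37 (983 of 6390). With no floor they were 16 of 53 (2535 of 8251), and 11 of 53 with no floor and a pseudocount of 100 (2154 of 8251). The floors differ by construction in how many genes they measure. The causes of the other changes were not tested. Signals near the negative controls limit what can be read for Plau and Plaur. No paired analysis was possible because each group has 1 array.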
